A study of Mus musculus with 12 samples.

Results

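The vascular genes described here are 9 genes that mark endothelial cells (Pecam1, Cdh5, Kdr, Tek, Tie1, Flt1, Emcn, Eng and Vwf) together with Selp, which encodes P-selectin. Their members are every probe set of the array annotated to exactly 1 of these 10 genes, which gave 10 of the 18193 genes on the array and 17 of its 45037 probe sets, namely 3 for Selp and 14 for the 9 endothelial genes. Selp was chosen by its measured signal, which was higher in both knockouts on these same arrays, so its level against wild type is given as a description, with no test. The other 9 genes were set beside it as markers of the vessel wall.

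The data are single-colour oligonucleotide array signals of whole mouse testis at postnatal day 7. There were 4 arrays of Sohlh2-/- testes, 4 arrays of Sohlh1-/- testes and 4 arrays of wild-type testes, all on a C57BL/6, 129S5, SvEvBrd hybrid background, and each array held RNA of 3 testes pooled, 1 testis from each of 3 animals. Both Sohlh1 and Sohlh2 are genes for bHLH (basic helix-loop-helix) DNA-binding proteins of germ cells, and the design asks what whole-testis transcript levels are without either one. Arrays are named by genotype and by the replicate mark of the labels.

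Endothelial cells line the blood vessels that run between the seminiferous tubules. They keep contact through adhesion molecules such as Pecam1 and Cdh5, and they respond to growth factors through receptor tyrosine kinases such as Kdr, Flt1, Tek and Tie1. P-selectin and von Willebrand factor, the product of Vwf, are held together in the storage granules of endothelial cells, the Weibel-Palade bodies, and also in the alpha granules of platelets, and P-selectin on the cell surface catches passing leukocytes. In whole testis, more cells of a type cannot be told apart from more RNA per cell.

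The starting stretches of Selp and Eng are shown because they allow the gene with higher knockout signal to be set beside an endothelial gene whose signals overlapped between genotypes, and because the proteins absent from the knockouts belong to a family that binds the E-box, CANNTG. Each runs through 300 bases, with 250 before and 50 after the annotated start of transcription, in RefSeq's mouse assembly GRCm38.p6, plus strand. Selp lies at chr1:164115014-164115313 and Eng at chr2:32646345-32646644. Capitals mark each CANNTG match.
Selp: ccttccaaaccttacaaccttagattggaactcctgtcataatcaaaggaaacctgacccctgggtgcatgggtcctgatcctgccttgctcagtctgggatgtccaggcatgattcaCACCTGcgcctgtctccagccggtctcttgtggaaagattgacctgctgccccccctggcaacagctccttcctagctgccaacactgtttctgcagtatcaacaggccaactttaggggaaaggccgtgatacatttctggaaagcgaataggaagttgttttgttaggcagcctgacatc
Eng: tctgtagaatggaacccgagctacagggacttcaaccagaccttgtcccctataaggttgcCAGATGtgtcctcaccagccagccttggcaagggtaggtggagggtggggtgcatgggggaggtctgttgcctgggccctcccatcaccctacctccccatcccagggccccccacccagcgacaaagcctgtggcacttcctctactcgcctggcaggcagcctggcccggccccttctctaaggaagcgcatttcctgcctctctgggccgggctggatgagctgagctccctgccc

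The Selp stretch held 1 E-box, CACCTG, which begins 132 bases before the start, and the Eng stretch held 1 E-box, CAGATG, 189 bases before it. Of the 32851 stretches in the same table, 72.3% held at least 1 E-box, so a single match was usual. Stretches were found for 7 of the 10 members, and those of Kdr, Tie1 and Emcn also held 1 E-box, that of Tek held 2 and that of Flt1 held 0. The letters GGAA, the core of the site bound by ETS factors that act in endothelium, occurred 8 times in the Selp stretch on either strand and 4 times in that of Eng. At least 8 occurrences were found in 3.72% of all stretches, while Tie1 held 9, Emcn 6, Kdr 5, Flt1 4 and Tek 2. The letters GATAA, read by GATA factors, had no match in the Selp or Eng stretch on either strand, and 25.4% of all stretches held them. Neither E-box overlapped a GGAA, and these matches describe letters only.

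The 2 targeted genes were read on every array first. Sohlh1 gave 126, 465, 494 and 563 where the label was Sohlh2 knockout 1, 3-1, 4 and 5, then 104, 61.0, 50.2 and 595 where it was Sohlh1 knockout 2, 3, 4 and 5, and 1125, 1138, 1200 and 1233 on wild type 3, 4, 5 and 6. Sohlh2 gave 1847, 157, 93.6 and 73.2 on the Sohlh2 knockout arrays, 1556, 1783, 1605 and 94.4 on those of Sohlh1 knockout, and 885, 1104, 1012 and 1200 on the wild-type arrays. The array labelled Sohlh2 knockout 1 had low Sohlh1 and high Sohlh2, and the array labelled Sohlh1 knockout 5 had the opposite, so both went against their labels. The sources used here do not give where the probes lie relative to the deleted parts. Both arrays were kept as labelled and differed from every wild-type array in the targeted genes. The ratio of 3' to 5' actin signal, a sign of RNA integrity, was 3.56 on Sohlh2 knockout 1 and 2.10 on Sohlh1 knockout 2, and lay between 1.30 and 1.45 on the other arrays. The median signal of an array lay between 76.6 and 90.7.

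Selp was brighter on every knockout array than on every wild-type array by 1 of its 3 probe sets, 1420558_at. Its signal was 81.8, 113, 79.9 and 96.6 on Sohlh2 knockout 1, 3-1, 4 and 5. On Sohlh1 knockout 2, 3, 4 and 5 it was 125, 77.0, 115 and 131. On wild type 3, 4, 5 and 6 it was 53.8, 27.9, 47.5 and 26.6. The lowest knockout array, Sohlh1 knockout 3, was thus above the highest wild-type array, wild type 3. Over all tested probe sets, 4.14% had every Sohlh2 knockout array above every wild-type array and 5.07% had every Sohlh1 knockout array above it. The means were 92.9 ± 15.4 without Sohlh2, 112 ± 24.1 without Sohlh1 and 39.0 ± 13.8 in wild type (SD, n = 4 each), a ratio of means of 2.38 for Sohlh2 knockout over wild type and 2.87 for Sohlh1 knockout over wild type.

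**Figure D1:**
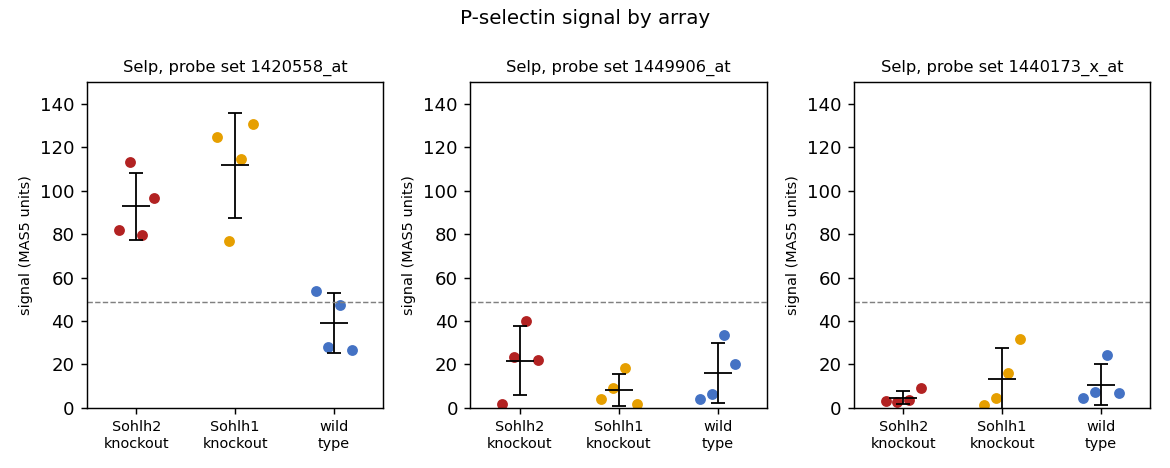
Signal (MAS5 units, vertical axis) of the 3 Selp probe sets in Sohlh2 knockout, Sohlh1 knockout and wild-type testes; points are arrays, bars are the mean and SD of 4 arrays, and the dashed line is the filter at 48.6. On 1420558_at the 8 knockout arrays sit between 77.0 and 131, all above the wild-type arrays, while the other 2 probe sets lie under the filter on every array.

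On the scale used for testing, log2(signal + 14.2), the difference of Selp 1420558_at was 1.04 between Sohlh2 knockout and wild type and 1.26 between Sohlh1 knockout and wild type. This offset holds back the change of a dim probe set, and the difference ran from 0.53 to 1.24 for Sohlh2 and from 0.67 to 1.49 for Sohlh1 over the other settings tried, both lowest with the offset at the median signal. Only 1 of the 4 wild-type arrays was above 48.6, the 40th percentile of all signals, which served as the filter on low values. A probe set was tested where it passed that level on at least 4 of the 12 arrays, and Selp 1420558_at passed it on 9, which included the 8 knockout arrays, so it entered through the groups where it is high. Both comparisons use the same wild-type arrays.

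The 2 knockouts were then compared directly. Selp was chosen for a higher signal in both, so the choice used these same arrays and can favour like knockout levels. No likeness of the knockouts is read from this contrast. The difference, Sohlh2 knockout minus Sohlh1 knockout, was -0.22 (log2; SE 0.25, n = 4 each; 95% interval -0.75 to 0.31), and the 2 groups of arrays overlapped. Its adjusted p by limma was 1.00. Without the 2 arrays whose targeted genes go against their labels it was -0.10. With Sohlh1 knockout 2 also left out it was 0.02. The mean of Sohlh1 knockout was the highest and that of wild type the lowest, and the order of the 2 knockouts is not settled by these arrays, since their difference lies within the spread and changes sign without those 3 arrays.

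On the arrays whose targeted genes go against their labels, Selp read 81.8 on Sohlh2 knockout 1 and 131 on Sohlh1 knockout 5, both above every wild-type array. Without both, the log2 difference from wild type was 1.08 for Sohlh2 knockout and 1.18 for Sohlh1 knockout. Without the 2 arrays of high actin ratio it was 1.08 and 1.20, and without all 3 arrays it was 1.08 and 1.06, each time for Sohlh2 knockout and then for Sohlh1 knockout.

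The other probe sets of Selp gave no such pattern. Probe set 1449906_at read 1.54, 23.4, 40.2 and 21.8 on the Sohlh2 knockout arrays, 3.98, 8.90, 18.5 and 1.62 on the Sohlh1 knockout arrays, and 3.91, 6.53, 33.4 and 20.4 on the wild-type arrays. Probe set 1440173_x_at, whose suffix marks probes that may also match other transcripts, averaged 4.73 ± 2.98 in Sohlh2 knockout, 13.4 ± 13.9 in Sohlh1 knockout and 10.7 ± 9.28 in wild type (SD, n = 4 each). Neither passed 48.6 on any array, their groups overlapped, and neither was tested, so the higher Selp signal rests on 1 probe set.

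No probe set of the 9 endothelial genes was called in either knockout. Of their 14 probe sets 13 were tested, and 0 were called at an adjusted p under 0.05 against wild type in Sohlh2 knockout, where 1.55% of all 28694 tested probe sets were called, and 0 in Sohlh1 knockout, where 2.09% were called (limma with Benjamini-Hochberg adjustment). None reached an unadjusted p under 0.05 either, against 13.5% of all tested probe sets in Sohlh2 knockout and 14.9% in Sohlh1 knockout. None had groups that did not overlap, against 8.82% of tested probe sets in Sohlh2 knockout and 11.2% in Sohlh1 knockout. Their median log2 difference was 0.01 in Sohlh2 knockout and 0.09 in Sohlh1 knockout, where all tested probe sets had -0.0038 and -0.0027. In both comparisons 7 of the 13 lay above 0 and 6 below. At called shares of 1.55% and 2.09%, fewer than 1 call would fall among 13 probe sets, so the count of 0 sets them apart from no others, and the 95% intervals reach as low as -1.45 and as high as 1.13 (log2).

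**Figure D2:**
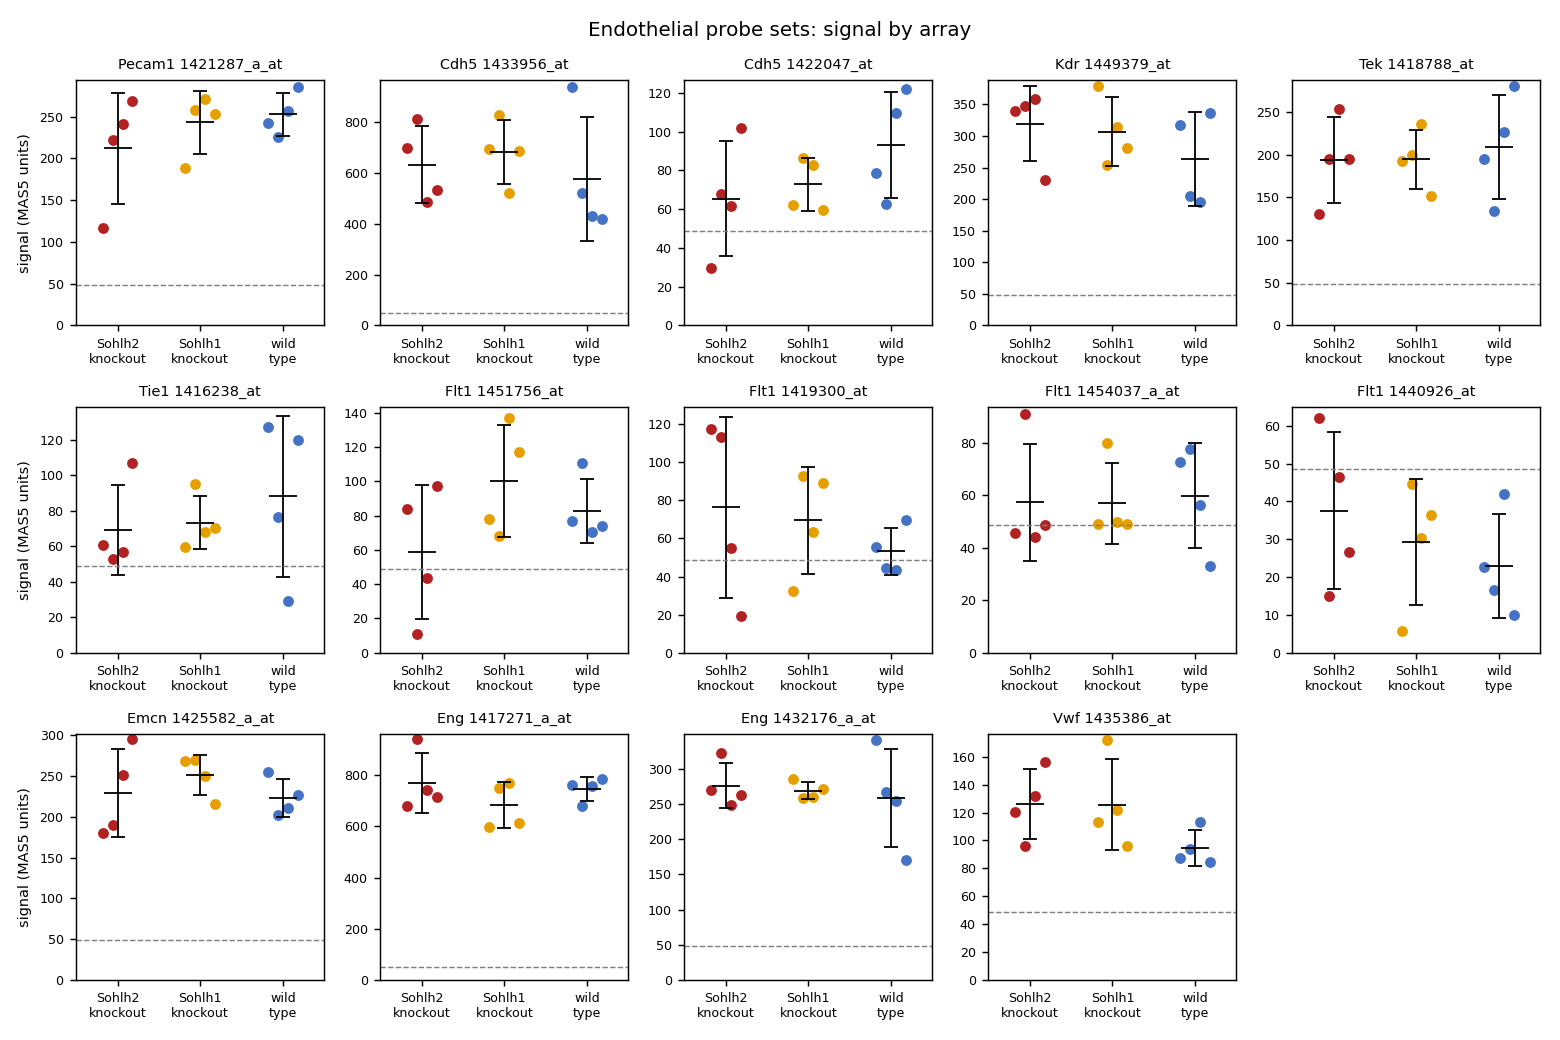
Signal (MAS5 units, vertical axes starting at 0 with a range of their own) of the 14 endothelial probe sets; points are arrays, bars the mean and SD of 4 arrays, and the dashed line the filter at 48.6. In each panel the points of the knockouts and of wild type overlap, as for Cdh5 1433956_at with 420 to 935 in wild type.

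Among the adhesion molecules, Pecam1, which joins endothelial cells at their borders, read 116, 222, 241 and 269 in Sohlh2 knockout, 188, 258, 272 and 254 in Sohlh1 knockout, and 242, 226, 257 and 286 in wild type. Its log2 difference from wild type was -0.29 for Sohlh2 knockout (adjusted p = 0.596) and -0.06 for Sohlh1 knockout (adjusted p = 0.928). The lowest value, 116, came from Sohlh2 knockout 1, the array with the highest actin ratio and the other 3 arrays of that genotype read 222 to 269.

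Cdh5, which encodes VE-cadherin of the endothelial adherens junction, has 2 tested probe sets. The brighter, 1433956_at, read 699, 812, 485 and 531 in Sohlh2 knockout, 695, 827, 522 and 686 in Sohlh1 knockout, and 935, 519, 430 and 420 in wild type, where wild type 3 stood well above the other 3. The dimmer, 1422047_at, averaged 65.3 ± 29.7, 72.7 ± 13.8 and 93.2 ± 27.4 in Sohlh2 knockout, Sohlh1 knockout and wild type (SD, n = 4 each). They differed in sign, with log2 differences from wild type of 0.18 and -0.48 for Sohlh2 knockout and 0.30 and -0.28 for Sohlh1 knockout, and across the 12 arrays they correlated at r = -0.42. Emcn, which encodes the sialomucin endomucin of capillaries and veins, read 181, 189, 251 and 295 in Sohlh2 knockout, 268, 270, 251 and 216 in Sohlh1 knockout, and 254, 202, 211 and 226 in wild type. The Emcn differences from wild type were 0.01 and 0.16 (log2; Sohlh2 knockout, then Sohlh1 knockout).

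Of the growth factor receptors, Kdr, the main signalling receptor for vascular endothelial growth factor, read 340, 348, 359 and 231 in Sohlh2 knockout, 380, 253, 314 and 280 in Sohlh1 knockout, and 318, 204, 195 and 337 in wild type. For Sohlh2 knockout 3 of 4 arrays and for Sohlh1 knockout 1 of 4 were above every wild-type array, and the log2 differences were 0.28 (95% interval -0.15 to 0.72) and 0.23 (-0.20 to 0.67). Flt1, the receptor that also binds placental growth factor, was dim and its probe sets disagreed. Its brightest, 1451756_at, read 83.8, 10.9, 43.3 and 97.2 in Sohlh2 knockout, 77.7, 68.0, 137 and 117 in Sohlh1 knockout, and 76.7, 111, 70.3 and 73.7 in wild type, so the spread within Sohlh2 knockout was as wide as that between groups. The log2 differences of the 3 tested Flt1 probe sets lay between -0.60 and 0.24 for Sohlh2 knockout and between -0.03 and 0.25 for Sohlh1 knockout, and their correlations with each other lay between -0.40 and 0.20 over 12 arrays. The fourth, 1440926_at, passed 48.6 on 1 array, with 62.2 on Sohlh2 knockout 1, and was not tested.

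Tek and Tie1 encode the angiopoietin receptor Tie2 and its partner. Tek read 130, 194, 253 and 195 in Sohlh2 knockout, 193, 199, 236 and 151 in Sohlh1 knockout, and 195, 134, 227 and 280 in wild type, with differences of -0.10 and -0.07 (log2; Sohlh2 knockout, then Sohlh1 knockout, each against wild type). Tie1 read 60.5, 52.5, 57.0 and 107 in Sohlh2 knockout, 59.8, 94.7, 68.2 and 70.3 in Sohlh1 knockout, and 127, 76.2, 29.1 and 120 in wild type. Wild type alone spanned the range of both knockouts for Tie1. Eng, which encodes endoglin, an accessory receptor of the TGF-beta family, has 2 tested probe sets. The brighter, 1417271_a_at, read 679, 944, 742 and 715 in Sohlh2 knockout, 599, 751, 769 and 613 in Sohlh1 knockout, and 764, 678, 760 and 786 in wild type, with a within-group SD of 0.17 (log2), the smallest among the 13 tested endothelial probe sets. Its 95% interval was -0.23 to 0.30 for Sohlh2 knockout and -0.40 to 0.13 for Sohlh1 knockout against wild type. The dimmer, 1432176_a_at, read 270, 323, 249 and 263 in Sohlh2 knockout, 286, 259, 261 and 272 in Sohlh1 knockout, and 341, 267, 255 and 171 in wild type, so wild type held both its highest and its lowest array. Its within-group SD was 0.25, its log2 differences were 0.12 and 0.09 (Sohlh2 knockout, then Sohlh1 knockout, each against wild type), and the 2 Eng probe sets correlated at r = 0.02 over the 12 arrays.

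Vwf, the granule partner of P-selectin, came closest to a difference. It read 121, 96.0, 132 and 156 in Sohlh2 knockout, 114, 172, 122 and 96.1 in Sohlh1 knockout, and 87.3, 93.6, 113 and 84.2 in wild type. In each knockout 3 of 4 arrays were above every wild-type array, and 1 array of each lay inside the wild-type range. The log2 difference was 0.36 for Sohlh2 knockout (SE 0.21; 95% interval -0.08 to 0.80; adjusted p = 0.482) and 0.35 for Sohlh1 knockout (SE 0.21; 95% interval -0.10 to 0.79; adjusted p = 0.462), neither past the threshold. These were the smallest adjusted p values among the endothelial members in both comparisons.

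**Figure D3:**
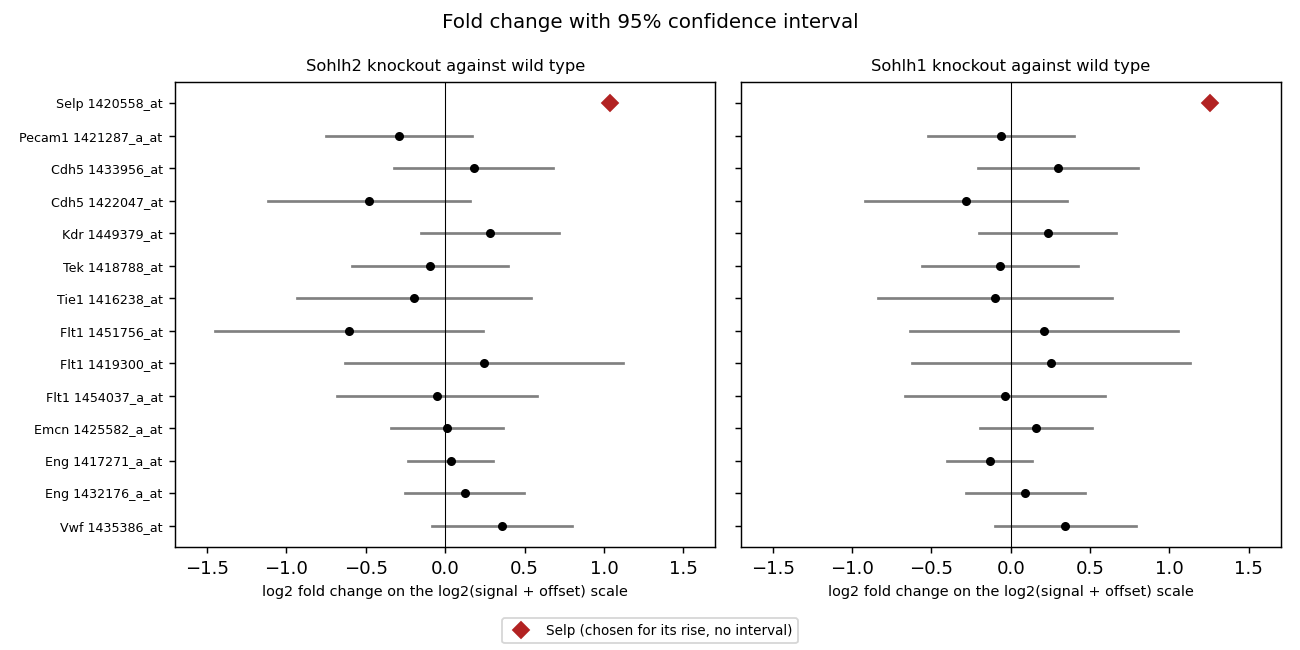
Log2 fold change on the log2(signal + 14.2) scale (horizontal axis) of the 14 tested probe sets for Sohlh2 knockout against wild type and Sohlh1 knockout against wild type; points are estimates, lines 95% confidence intervals, and the diamond is Selp without an interval. Every endothelial interval crosses 0, and Selp lies at 1.04 and 1.26.

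The 2 knockouts also gave no call against each other among the 13 endothelial probe sets, where 0% of all 28694 probe sets were called and 2.67% had an unadjusted p under 0.05. The widest difference, Sohlh2 knockout minus Sohlh1 knockout, was -0.81 for Flt1 1451756_at (log2; 95% interval -1.66 to 0.03; adjusted p = 1.00 by limma). This value compares groups in which 1 array each goes against its label.

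Taken as a sum of the brightest probe set of each gene, the 9 endothelial genes were at 2609 ± 192 in Sohlh2 knockout, 2660 ± 177 in Sohlh1 knockout and 2536 ± 349 in wild type (SD, n = 4 each), and the ranges overlapped, at 2409 to 2869, 2484 to 2893 and 2243 to 3000.  On each array the median difference of the 9 genes from their wild-type means lay between -0.13 and 0.09 in Sohlh2 knockout, -0.06 and 0.16 in Sohlh1 knockout and -0.13 and 0.07 in wild type (log2). Set against that median, Selp was 0.87 to 1.35 higher on the Sohlh2 knockout arrays, 0.78 to 1.48 higher on the Sohlh1 knockout arrays, and between -0.42 and 0.36 on the wild-type arrays. The means of this difference were 1.06 ± 0.20, 1.22 ± 0.33 and 0.02 ± 0.38 (SD, n = 4 each; Sohlh2 knockout, Sohlh1 knockout, wild type). These values include the Selp differences by which it was chosen, and they are given as a description.

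**Figure D4:**
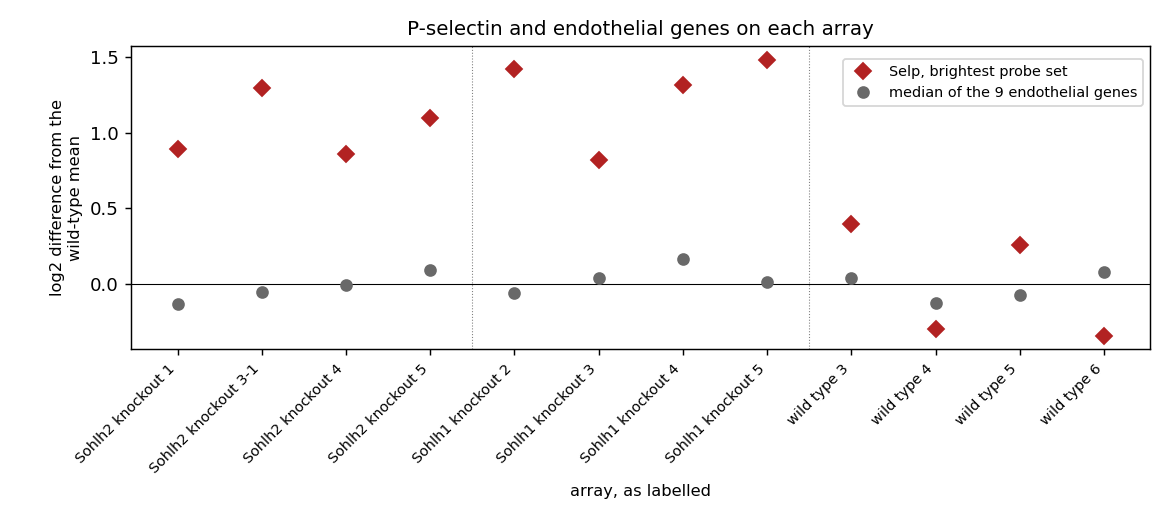
Log2 difference from the wild-type mean (vertical axis) on each of the 12 arrays for Selp 1420558_at (diamonds) and for the median of the 9 endothelial genes (circles); dotted lines part Sohlh2 knockout, Sohlh1 knockout and wild type. The circles stay between -0.13 and 0.16 on all arrays, while the diamonds of the 8 knockout arrays lie above those of wild type.

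The endothelial genes varied little together from array to array. Of the 36 pairs among the 9 genes, 23 had a correlation above 0 over the 12 arrays, and r lay between -0.68 for Flt1 with Eng and 0.63 for Pecam1 with Tek. These points share the same 12 arrays and 3 genotypes. The array Sohlh2 knockout 1 had the lowest signal for 4 of the 13 tested probe sets, those of Pecam1, Tek, Emcn and Cdh5 1422047_at, and wild type 6 had the lowest for 4 others. Correlations of the endothelial probe sets with Selp 1420558_at over the 12 arrays lay between -0.35 and 0.48. With the mean of each group taken off, they lay between -0.41 for Vwf and 0.66 for Eng 1432176_a_at. The other Eng probe set, 1417271_a_at, then had 0.05.

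Among 24905 tested probe sets with 1 gene symbol, those whose log2 signal followed Selp most closely over the 12 arrays were Fundc2, Aox4, a probe set with a clone name, Etfrf1, Zbtb26, Enkd1, Scml2 and Kdm2b, with r between 0.927 and 0.941. None is in any list used here. Aox4, an aldehyde oxidase gene, averaged 114 ± 12.95 in Sohlh2 knockout, 121 ± 37.1 in Sohlh1 knockout and 28.0 ± 9.47 in wild type (SD, n = 4 each). Scml2, a germ-cell Polycomb gene, averaged 658 ± 94.1, 744 ± 105 and 308 ± 59.2 in the same order. Aox4 had a wild-type mean and SD that place each wild-type array under the filter, so it entered the test through knockout arrays alone. Such entry favours a higher knockout signal, so no difference is read from the Aox4 means. Selp was itself chosen for a higher signal in both knockouts, so likeness to it over the 12 arrays favours probe sets that share this. This likeness is largely that of the genotypes: once the mean of each group was taken off, the closest were Nat9, Zbtb44, Dsc2, Zswim5, Eva1b, Mkx, Dlx4 and Slc25a34, with r between 0.870 and 0.896.

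A list of 31 further endothelial genes gave no call. Of these, 30 were tested and 0 were called in Sohlh2 knockout, where 2.17% of the 13702 genes tested by their brightest probe set were called, and 0 in Sohlh1 knockout, where 2.89% were called. At an unadjusted p under 0.05 there was 1 of 30 in Sohlh2 knockout and 2 of 30 in Sohlh1 knockout, against 16.2% and 17.7% of all genes. The list's median log2 difference was 0.04 and -0.06, against 0.02 and 0.03 over all genes. Erg, an endothelial ETS factor, read 292, 308, 370 and 385 in Sohlh2 knockout, 340, 324, 309 and 299 in Sohlh1 knockout, and 397, 390, 426 and 389 in wild type. Every knockout array was below every wild-type array, and its log2 differences of -0.24 and -0.32 had adjusted p of 0.407 and 0.218. Groups did not overlap, in either direction, for 8.82% of all tested probe sets in Sohlh2 knockout and 11.2% in Sohlh1 knockout. S1pr1, a sphingosine 1-phosphate receptor, had -0.42 in Sohlh2 knockout with adjusted p = 0.319, and Apln, the ligand of the apelin receptor, had -0.30 and -0.35 with adjusted p of 0.381 and 0.269.

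Pericytes and vascular smooth muscle, which wrap the vessels, had 12 genes tested and 0 called in either knockout. Over all genes 2.17% were called in Sohlh2 knockout and 2.89% in Sohlh1 knockout. The list's medians were 0.01 and -0.01 in the same order. In whole testis its contractile genes, such as Acta2 and Tagln, cannot be assigned to vessels. Tagln, an actin-binding protein of smooth muscle, had -0.20 and -0.24 (adjusted p of 0.326 and 0.202), and Abcc9, a potassium channel subunit of pericytes, 0.30 and 0.17 (adjusted p of 0.339 and 0.577). Of the lymphatic endothelium, 5 of 7 listed genes were tested and 0 were called, against the same shares over all genes. Lyve1, the hyaluronan receptor of lymphatic vessels that macrophages also make, read 256, 314, 264 and 254 in Sohlh2 knockout, 176, 162, 129 and 238 in Sohlh1 knockout, and 137, 164, 145 and 216 in wild type. Its Sohlh2 knockout arrays lay above all of wild type, as in 4.14% of all tested probe sets. The difference of 0.69 did not pass (adjusted p = 0.0951), and in Sohlh1 knockout it was 0.07. Reln had -0.52 and -0.46 (adjusted p of 0.157 and 0.185), and Prox1, the defining factor of lymphatic vessels, was below the filter on every array.

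Of 12 genes listed for the ligands of these receptors and the co-receptors Nrp1 and Nrp2, 11 were tested. For comparison, 2.17% of all genes were called in Sohlh2 knockout and 2.89% in Sohlh1 knockout. Vegfb, a ligand of Flt1, read 350, 426, 375 and 378 in Sohlh2 knockout, 360, 397, 377 and 365 in Sohlh1 knockout, and 510, 508, 482 and 611 in wild type, so every knockout array was below every wild-type array. It fell by 0.47 in Sohlh1 knockout (log2; SE 0.11, adjusted p = 0.0453), the 1 call of the list, and the Sohlh2 knockout difference was -0.45 (adjusted p = 0.0657). The Sohlh1 call was lost in 19 of 25 other settings, with adjusted p up to 0.189. Groups without overlap, in either direction, made up 8.82% of all tested probe sets in Sohlh2 knockout and 11.2% in Sohlh1 knockout. Vegfa, the ligand of Kdr and Flt1, averaged 235 ± 60.5 in Sohlh2 knockout, 266 ± 51.3 in Sohlh1 knockout and 276 ± 65.0 in wild type (SD, n = 4 each).

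P-selectin reaches the cell surface from Weibel-Palade bodies, and 10 genes of that granule and its release were tested. Since 2.17% of all genes were called in Sohlh2 knockout and 2.89% in Sohlh1 knockout, a single call does not set this list apart. Stx3, a syntaxin that takes part in membrane fusion in many cell types, was the 1 call: it rose in Sohlh1 knockout by 0.63 (log2; SE 0.15, adjusted p = 0.0479), and its Sohlh2 knockout difference was 0.64 (adjusted p = 0.0520). It read 804, 823, 643 and 681 in Sohlh2 knockout, 769, 707, 566 and 918 in Sohlh1 knockout, and 544, 504, 385 and 444 in wild type, with no overlap between either knockout and wild type. The Sohlh1 call was lost in 16 of 25 other settings, with adjusted p up to 0.201. All knockout arrays were above wild type for 4.14% (Sohlh2) and 5.07% (Sohlh1) of all tested probe sets. Angpt2, another granule cargo, had -0.04 in Sohlh2 knockout and 0.27 in Sohlh1 knockout, and Rab27a, which tethers the granules, -0.07 and -0.23.

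The other selectins, their ligand and the enzymes that make its sugars had 11 of 15 genes tested. Of these 0 were called, against 2.17% of all genes in Sohlh2 knockout and 2.89% in Sohlh1 knockout. Selplg, the P-selectin ligand of leukocytes, averaged 54.2 ± 15.7 in Sohlh2 knockout, 40.01 ± 23.1 in Sohlh1 knockout and 71.0 ± 41.6 in wild type (SD, n = 4 each). Sele, the E-selectin gene of activated endothelium, was not tested and reached 65.2 at most. C1galt1, which builds core O-glycans, had -0.33 and -0.25 (adjusted p of 0.251 and 0.360), and B4galt1, a galactosyltransferase, 0.32 and 0.29 (adjusted p of 0.361 and 0.378), Sohlh2 knockout given first.

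Inflammatory activation of endothelium is known to raise P-selectin in mice, and 8 of 13 genes of that list were tested. Calls over all genes came to 2.17% in Sohlh2 knockout and 2.89% in Sohlh1 knockout. Socs3, a feedback inhibitor of cytokine signalling, rose in Sohlh1 knockout by 0.96 (log2; SE 0.18, adjusted p = 0.0133), and its Sohlh2 knockout difference of 0.67 did not pass (adjusted p = 0.0849). It read 333, 409, 338 and 295 in Sohlh2 knockout, 328, 447, 388 and 542 in Sohlh1 knockout, and 252, 200, 156 and 240 in wild type, so that all knockout arrays were above wild type. That held for 4.14% (Sohlh2) and 5.07% (Sohlh1) of all tested probe sets. The leukocyte adhesion molecule Vcam1 had -0.19 and 0.09, and Icam1 -0.11 and -0.11, none of them called. The list's median was -0.15 in Sohlh2 knockout and -0.07 in Sohlh1 knockout.

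Platelets and their precursors, the megakaryocytes, also hold P-selectin, and 11 of 18 listed genes were tested, with 0 called in either knockout. The shares called over all genes were 2.17% in Sohlh2 knockout and 2.89% in Sohlh1 knockout. The list's summed signal was 2398 to 3129 in Sohlh2 knockout, 2344 to 3537 in Sohlh1 knockout and 2378 to 2957 in wild type. Most of it came from Pf4 and Gata1. Pf4 averaged 1069, 1170 and 1025 and Gata1 831, 1026 and 845 in the same order. The sum thus follows these genes more than the rest of the list, and it is no measure of platelets alone. Pf4, the chemokine of platelet granules that tissue macrophages also make, had 0.06 and 0.19 (adjusted p of 0.837 and 0.402). Itga2b, the platelet fibrinogen receptor subunit, had -0.12 and 0.18. Treml1, a receptor of the platelet alpha granule, read 108, 93.5, 55.6 and 77.8 in Sohlh2 knockout, 57.0, 68.0, 88.3 and 11.7 in Sohlh1 knockout, and 12.5, 37.9, 16.2 and 9.85 in wild type. Its difference of 1.59 in Sohlh2 knockout did not pass (adjusted p = 0.0740), with no overlap, and in Sohlh1 knockout it was 0.98 with overlap (adjusted p = 0.276). Gp6, the platelet collagen receptor, had 1.35 in Sohlh2 knockout (adjusted p = 0.276) at signals mostly under the filter, and Ppbp was not tested. Treml1 and Gp6 lay under the filter on every wild-type array, so both entered the test through knockout arrays alone. That entry favours a higher knockout signal, so no difference is read from their p values or from the lack of overlap. The part of platelets in the Selp signal was not tested.

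Genes of the mast cell granule rose in Sohlh2 knockout. Of 9 listed genes 7 were tested, and Cma1, Cpa3 and Mcpt4, proteases of the mast cell granule, rose in Sohlh2 knockout by 1.17, 1.38 and 1.49 (log2; adjusted p of 0.0190, 0.0286 and 0.0374). These calls were lost in 5, 6 and 15 of 25 other settings, with adjusted p up to 0.0722, 0.0981 and 0.134. Over all genes 2.17% were called in that comparison, and 6 of the 7 had an unadjusted p under 0.05, against 16.2% of all genes. In Sohlh1 knockout 0 of 7 were called, against 2.89% of all genes, 5 of 7 had an unadjusted p under 0.05, against 17.7% of all genes, and the same 3 genes had differences of 0.93, 1.14 and 1.20 (adjusted p of 0.0513, 0.0627 and 0.0819). The list's median was 1.17 in Sohlh2 knockout and 0.88 in Sohlh1 knockout, against 0.02 and 0.03 over all genes, and in both knockouts all 7 were above 0.

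Cma1 read 300, 233, 388 and 336 in Sohlh2 knockout, 315, 216, 274 and 242 in Sohlh1 knockout, and 142, 191, 76.1 and 131 in wild type. No knockout array of Cma1 was below a wild-type array, as in 4.14% (Sohlh2) and 5.07% (Sohlh1) of all tested probe sets. The same held for Hdc, with 319 or more in the knockouts and at most 316 in wild type. Others of the list overlapped. Cpa3 read 270 on Sohlh1 knockout 5 and 299 on wild type 4, and Tpsb2 read 111 on Sohlh1 knockout 5 and 175 on wild type 6. Gata2 averaged 283 in Sohlh2 knockout, 267 in Sohlh1 knockout and 263 in wild type. The summed signal of the 9 listed genes was 1834 to 3275 in Sohlh2 knockout, 1804 to 2506 in Sohlh1 knockout and 981 to 1701 in wild type, with no overlap. Fcer1a, the mast cell IgE receptor chain, averaged 14.6 ± 10.96, 9.83 ± 9.29 and 4.78 ± 4.71 in Sohlh2 knockout, Sohlh1 knockout and wild type (SD, n = 4 each) and was below the filter on every array. The part of mast cells in the Selp signal was not tested.

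Leukocytes as a whole gave no call among 10 of 13 listed genes tested. Among all genes 2.17% were called in Sohlh2 knockout and 2.89% in Sohlh1 knockout. Cd68 of macrophages had 0.11 in Sohlh2 knockout and 0.07 in Sohlh1 knockout, and Csf1r and Mrc1, also of macrophages, were among the genes of smallest p with 0.15 in Sohlh2 knockout for Csf1r and 0.18 in Sohlh1 knockout for Mrc1. The list's sum ran widely, at 2343 to 9129 in Sohlh2 knockout, 2413 to 4164 in Sohlh1 knockout and 2146 to 2980 in wild type. S100a8, a neutrophil calgranulin named after its values were seen, read 3993, 19.5, 38.0 and 43.9 in Sohlh2 knockout, 669, 857, 17.0 and 63.7 in Sohlh1 knockout, and 95.7, 50.8, 26.8 and 140 in wild type. It was high on 3 knockout arrays, among them Sohlh2 knockout 1 and Sohlh1 knockout 2, the arrays of high actin ratio. On the third, Sohlh1 knockout 3, that ratio was 1.44. The part of neutrophils in the Selp signal was not tested.

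**Figure D5:**
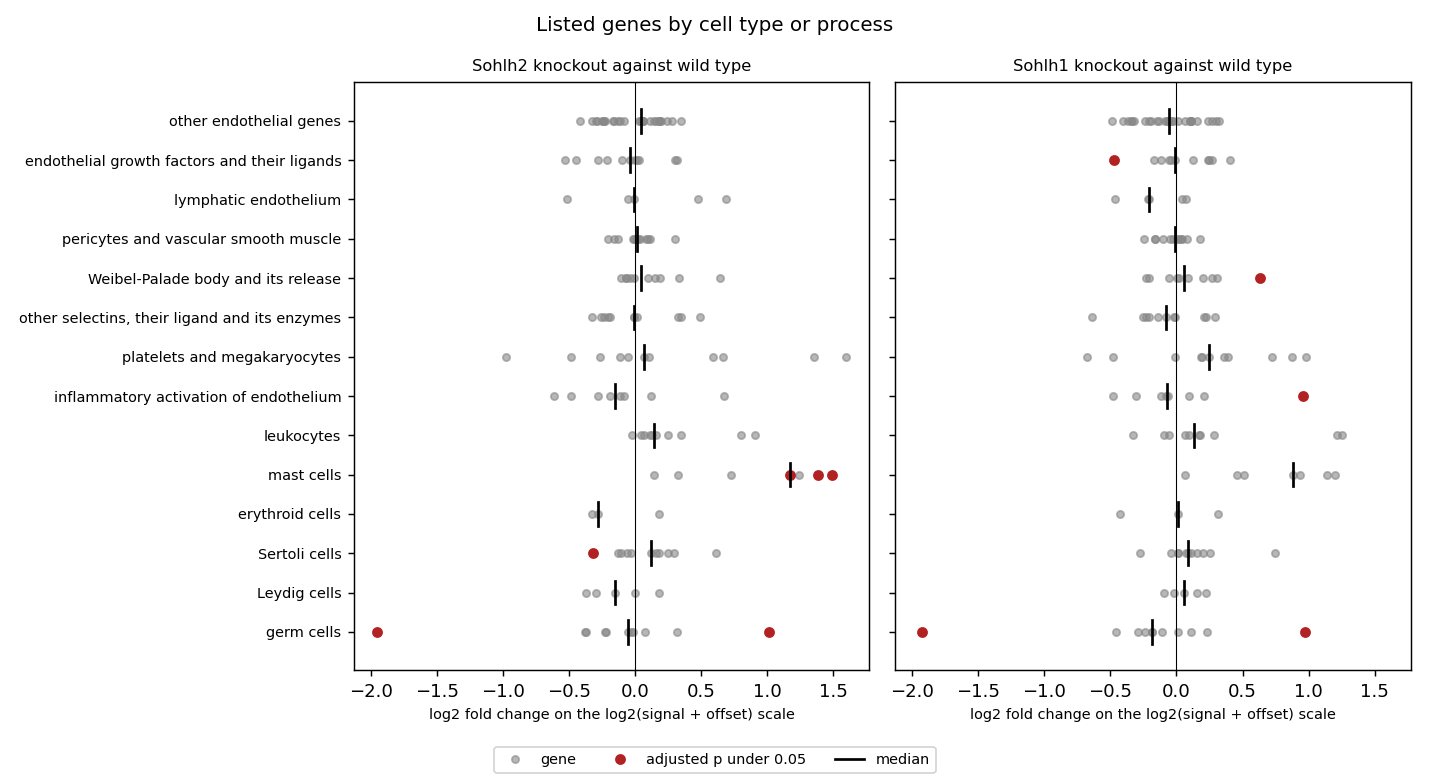
Log2 fold change on the log2(signal + 14.2) scale (horizontal axis) of each tested gene of 14 lists for Sohlh2 knockout against wild type and Sohlh1 knockout against wild type; grey points are genes, red points genes at an adjusted p under 0.05, and bars list medians. The mast cell medians stand at 1.17 and 0.88, and the other endothelial genes at 0.04 and -0.06.

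The tissue itself was present as labelled: Amh and Sox9 of Sertoli cells, Ddx4 and Dazl of germ cells, and Cyp17a1 of Leydig cells were bright on all 12 arrays. Of 11 germ cell genes, Kit, the receptor of differentiating spermatogonia, fell by 1.95 in Sohlh2 knockout and fell by 1.92 in Sohlh1 knockout (log2; adjusted p of 1.6e-05 and 1.9e-05), and Gfra1, the receptor of undifferentiated spermatogonia, rose by 1.01 and 0.97 (adjusted p of 0.00261 and 0.00287). Of 11 Sertoli cell genes, Dmrt1, which germ cells also make, fell by 0.32 in Sohlh2 knockout (adjusted p = 0.0352, a call lost in 15 of 25 other settings), with -0.28 in Sohlh1 knockout (adjusted p = 0.0627). The 5 Leydig and 3 erythroid genes tested gave 0 calls in either knockout, where 2.17% (Sohlh2) and 2.89% (Sohlh1) of all genes were called. Nr5a1 stood at 0.18 and 0.23 and Alas2 at -0.28 and -0.43 (log2, Sohlh2 knockout given first).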

How the data were processed

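Whole-testis RNA was measured on 12 arrays in 3 genotype groups of 4. The deposited values are linear array intensity signals, and the submitters' processing notes name MAS5 and GCOS. In the values themselves, the mean of each array is 500 after leaving out 2% at each end. Labelling was primed with oligo(dT), per the labels' protocols, so RNA integrity can bear on signals. Of 45101 probe sets, 64 array controls were left out. Signals were put on log2(signal + 14.2), the 20th percentile as offset, and 28694 probe sets above 48.6 on at least 4 arrays entered 1 model over all groups (R 4.3.3, package limma 3.58.1, moderated with eBayes and a variance trend), with Benjamini-Hochberg adjustment and calls at 0.05. The number of arrays limits the precision. Genes of a list are represented by their brightest probe set, and symbols come from the platform annotation (34945 probe sets with 1 symbol, 932 with several, 9160 with none). The fit was tested on simulated data. The members and lists were chosen with earlier results of these data known. Named genes are every member, the called genes of each list, or up to 2 of smallest p where none was called, and the 8 probe sets closest to Selp by each likeness measure, and genes named for background are given with their values. Promoter stretches are RefSeq's, GRCm38.p6. Alternatives were other offsets, filters, normalizations, variance models, 1 probe set per gene, a replicate block, and left-out arrays.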

Additional observations from a re-analysis of the deposited data

Results flagged for a closer look

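In 7 of the 51 groups of 4 arrays formed by the 17 member probe sets, 1 array stood far from the other 3, by a gap above the 95% critical value of Dixon's ratio for groups of this size. Chance gives about 1 such group in 20. On Sohlh2 knockout 5, Kdr read 231, where the other 3 arrays of that genotype read 340 to 359, and Tie1 read 107, where they read 52.5 to 60.5. Selp 1440173_x_at, under the filter everywhere, read 9.18 on Sohlh2 knockout 5 and 24.5 on wild type 5. Flt1 1454037_a_at read 90.7 on Sohlh2 knockout 3-1 and 79.9 on Sohlh1 knockout 3, where the others of their genotypes read 44.1 to 48.5 and 48.9 to 49.6. Flt1 1451756_at read 111 on wild type 4, where the others read 70.3 to 76.7. Selp 1420558_at had no such array in any genotype.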

How the results depend on the processing

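The count of changed endothelial probe sets was 0 in each of the 3 comparisons under all 25 settings, with a smallest adjusted p of 0.164. Their fold changes, none of them called, changed sign 89 times in 960 recomputed values, over 24 of 39 results, and moved by more than 1 within-group SD in 7. Over all probe sets, 445 changed in Sohlh2 knockout and 600 in Sohlh1 knockout against wild type; without a variance trend the counts were 293 and 343, without the 2 arrays of high actin ratio 747 and 991, and without single arrays 202 to 503 and 230 to 1238. The lowest count for Sohlh1 knockout came without wild type 6 and the highest without Sohlh2 knockout 1. With only the 2 groups compared, 283 were called in Sohlh2 knockout, and without all 3 arrays of doubted label or high ratio, 767. Between the knockouts 0 were called with all arrays, 9 without the 2 arrays of doubted label and 11 without all 3. With the replicate number as a block 98 and 338 were called against wild type. Deviations of arrays that share a number with wild type correlated at r of -0.08 and 0.10 for Sohlh2 knockout. For Sohlh1 knockout r was -0.12, -0.01 and 0.03, and between the knockouts it was 0.09 and 0.06. Pairs of unlike number ranged from -0.26 to 0.38. So few pairs cannot tell whether arrays of like number share a batch, and the labels do not say what the numbers mark. Of the called list genes, Kit and Socs3 passed under all 25 settings, Gfra1 under all in Sohlh1 knockout and all but 1 in Sohlh2 knockout; Cma1 was lost in 5, Cpa3 in 6, Mcpt4 in 15 and Dmrt1 in 15. The causes were not tested. Signals near the filter, as for Selp in wild type and for Flt1, limit what can be read from them.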
